A study of Mus musculus with 3 samples.

Results

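The cells described here are chondrocytes of a mouse fracture callus that carried an intermediate share of Col10a1, the collagen gene that marks hypertrophic cartilage. They were chosen by their own counts. Barcodes were kept if 500 or more genes were detected and mitochondrial genes took no more than 10% of their unique molecular identifiers (UMIs, each standing for 1 captured RNA molecule). A kept cell was a member when Col2a1 made up at least 1% of its UMIs and exceeded Col1a1, Col10a1 lay from 0.05% to below 0.5%, and the late genes Mmp13, Bglap, Bglap2, Ifitm5 and Dmp1 together stayed below 0.05%. This rule found 382 members among 5463 kept cells, of which 101 were in the YKL library, 100 in the PTH library and 181 in the control library. Cells that met every other part of the rule but had less Col10a1, or 0.5% and more, are called the cells below and above the window.

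The callus came from female C3H/HeJ mice, 9 weeks old, whose pinned femur had been fractured at midshaft, and it was collected at day 7 with marrow avoided and digested with collagenase. The YKL group was injected under the skin every day with YKL-05-099, an inhibitor of the salt-inducible kinases, at 15 mg/kg. The PTH group received parathyroid hormone 1-34 at 100 µg/kg, and the control group received the vehicle, phosphate-buffered saline. Each group had 1 droplet library made with a 3′ kit, so no difference between treatments has a replicate and none could be tested. The labels used here do not say whether a library held 1 animal or several.

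In the growth plate, chondrocytes leave the cell cycle and pass through a prehypertrophic stage before they enlarge and switch on Col10a1. Prehypertrophic cells are known as the source of Indian hedgehog (Ihh), which acts through Patched and Smoothened on neighbouring cells and raises parathyroid hormone-related protein (Pthlh). That protein, like parathyroid hormone, binds Pth1r on the maturing chondrocytes, raises cAMP, inhibits the salt-inducible kinases and holds back hypertrophy. The kinases themselves keep class IIa histone deacetylases and CRTC coactivators out of the nucleus, and the deacetylases restrain Mef2c, a transcription factor needed for hypertrophy. A callus that heals through cartilage uses the same steps.

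The libraries held 19424073 UMIs in 1500 barcodes (YKL), 33981167 in 5286 (PTH) and 55250651 in 8021 (control). The YKL members were deeper, with a median of 32189 UMIs and 4810 genes per cell, against 17100.5 UMIs and 3480.5 genes in PTH members and 17996 UMIs and 3604 genes in control members. Free RNA also differed between the libraries. Among cells that held at least 3 of 5 endothelial markers and should lack Col10a1, 11 of 56 reached 0.05% Col10a1 in the YKL library (19.6%), 7 of 324 in the PTH library (2.16%) and 13 of 195 in the control library (6.67%), at median depths of 8175.5, 6502 and 6200 UMIs. Of these endothelial cells 1, 1 and 2 were themselves members, so they are no clean measure of free RNA. Among cells with leukocyte markers, 9 of 40 reached 0.05% in YKL (22.5%), 0 of 116 in PTH (exact upper bound 3.13%) and 61 of 600 in control (10.2%), of which 0, 0 and 3 were members. Between 2 and 8 barcodes were shared by any pair of libraries, and none of them was a member in both.

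Members made up 16.7% of the kept YKL cells (exact 95% interval 13.8 to 19.9%), 5.23% of the PTH cells (4.27 to 6.32%) and 6.15% of the control cells (5.31 to 7.08%). These intervals, like all others between libraries here, cover counting error only. Of the cells of the 3 stages together, members were 28.9% of 349 in YKL, 15.5% of 644 in PTH and 11.7% of 1543 in control. With a lower bound of 0.1% Col10a1 the share of kept cells was 12.0% in YKL, 3.35% in PTH and 3.63% in control, so YKL stood highest with either bound. The part of depth, free RNA and the other cells of each library in these shares was not tested. Within the window the YKL members leaned towards its upper end: 45 of 101 had at least 0.2% Col10a1, against 34 of 100 PTH members and 55 of 181 control members. The median Col10a1 share was 0.184% in YKL members, 0.124% in PTH members and 0.118% in control members. The late gene limit removed 5 of 106 cells from the window in YKL, 11 of 111 in PTH and 8 of 189 in control.

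The label's other markers, Ihh, Pth1r and Mef2c, took no part in the rule. Levels are given as CPM, the UMIs of a gene per 1000000 UMIs summed over the cells named. Ihh had 377 CPM in YKL members, 601 CPM in PTH members and 249.6 CPM in control members, and was found in 77 of 101, 65 of 100 and 117 of 181 cells. Pth1r had 1921 CPM in YKL, 1621 CPM in PTH and 1627 CPM in control members. Mef2c had 1030.0, 1181 and 895 CPM in the same order. All 3 markers were thus present in members of every library. They did not peak there, since each was higher still above the window, as the next comparison shows. The cells are therefore called by their Col10a1 window and not by a stage of their own.

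Members were compared with the cells on either side of the window to see which genes climb, fade or peak as Col10a1 appears. UMIs were summed for each of 3 stages in each of 3 libraries, and edgeR's quasi-likelihood test was run with the library as a block, so these tests are replicated over libraries and average over the treatments. Adjusted p-values are Benjamini-Hochberg values over 10343 genes, and a gene counts as changed below 0.05. The stages were themselves cut on Col10a1 in the same cells, so genes that follow Col10a1 differ by construction, and the 8 genes of the rule were left out. Against the cells below the window, 492 genes were higher in members (4.76%) and 381 lower (3.68%). Against the cells above it, 720 were higher (6.96%) and 681 lower (6.58%). Leaving out the control library cut these totals of 873 and 1401 genes to 207 and 202, leaving out PTH gave 239 and 834, and leaving out YKL gave 723 and 829, with 2 libraries in each fit.

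Ihh, the hedgehog ligand, climbed through the window. In the cells below, within and above the window it had 160.3, 377 and 1004 CPM in YKL, 73.9, 601 and 1071 CPM in PTH, and 32.8, 249.6 and 1090.0 CPM in control. The order was the same in all 3 libraries. Members were higher than the cells below (log2 fold change 2.32 ± 0.38 SE, adjusted p = 0.00485) and lower than those above (−1.56 ± 0.36, adjusted p = 0.0197). The first call was lost without the PTH library (adjusted p = 0.088) and the second without the control library (adjusted p = 0.128), with DESeq2 (0.0522) and without the library block (0.0963). Cells just inside and outside the lower bound did not part by Ihh in the treated libraries: at 0.05 to 0.07% and 0.03 to 0.05% Col10a1 they had 227 and 269 CPM in YKL, 291 and 272 CPM in PTH, and 246 and 81.2 CPM in control. At 0.4 to 0.5% and 0.5 to 0.6% Col10a1 the levels were 530.4 and 692 CPM in YKL, 1900.5 and 564 CPM in PTH, and 376 and 609.7 CPM in control, from 3 to 15 cells each.

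Pth1r, the receptor of the hormone given to the PTH group, followed with a smaller slope. In the same order of stages it had 1332, 1921 and 2374 CPM in YKL, 794, 1621 and 2387 CPM in PTH, and 671, 1627 and 2608 CPM in control. Its log2 fold change was 0.91 ± 0.17 against the cells below (adjusted p = 0.00951) and −0.60 ± 0.17 against those above (adjusted p = 0.0409). Both calls were lost without the control library (adjusted p = 0.0856 and 0.164) and without the PTH library (adjusted p = 0.111 and 0.172). Mef2c had 623, 1030.0 and 1613 CPM in YKL, 454, 1181 and 1642 CPM in PTH, and 326, 895 and 1785 CPM in control. It rose by 1.16 ± 0.17 over the cells below (adjusted p = 0.00253) and stood 0.79 under those above (log2 −0.79 ± 0.17, adjusted p = 0.0128). The second call was lost without the control library (adjusted p = 0.0811) or the PTH library (adjusted p = 0.0502), and the first without the PTH library (adjusted p = 0.0597).

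Of the 14 tested genes of the hedgehog and PTHrP loop, 3 were higher in members than in the cells below, Ihh, Pth1r and Disp1, which releases hedgehog ligand from the cell. The same 3 were lower than in the cells above. Over all genes 4.76% were higher than in the cells below and 6.58% lower than in those above. The median over the list was −0.22 and 0.10 in the 2 comparisons, against −0.01 and 0.00 over all genes. Ptch1, the hedgehog receptor and itself a hedgehog target, ran the other way, with 173, 110.0 and 66.6 CPM below, within and above the window in YKL, 309, 117 and 58.3 CPM in PTH, and 238, 136 and 57.2 CPM in control. It fell by 0.96 ± 0.15 on the log2 scale against the cells below (adjusted p = 0.0041) and was 0.90 ± 0.17 higher than in those above (adjusted p = 0.00803, lost without the control library at 0.149). Without the control library 1 gene of the loop was higher and 1 lower than in the cells below, and the calls against those above were lost. The other members of the loop, among them Smo, Gli2, Gli3 and Sufu, were not called. Pthlh, the ligand that the loop feeds back through, had too few UMIs in these cells to be tested.

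**Figure D1:**
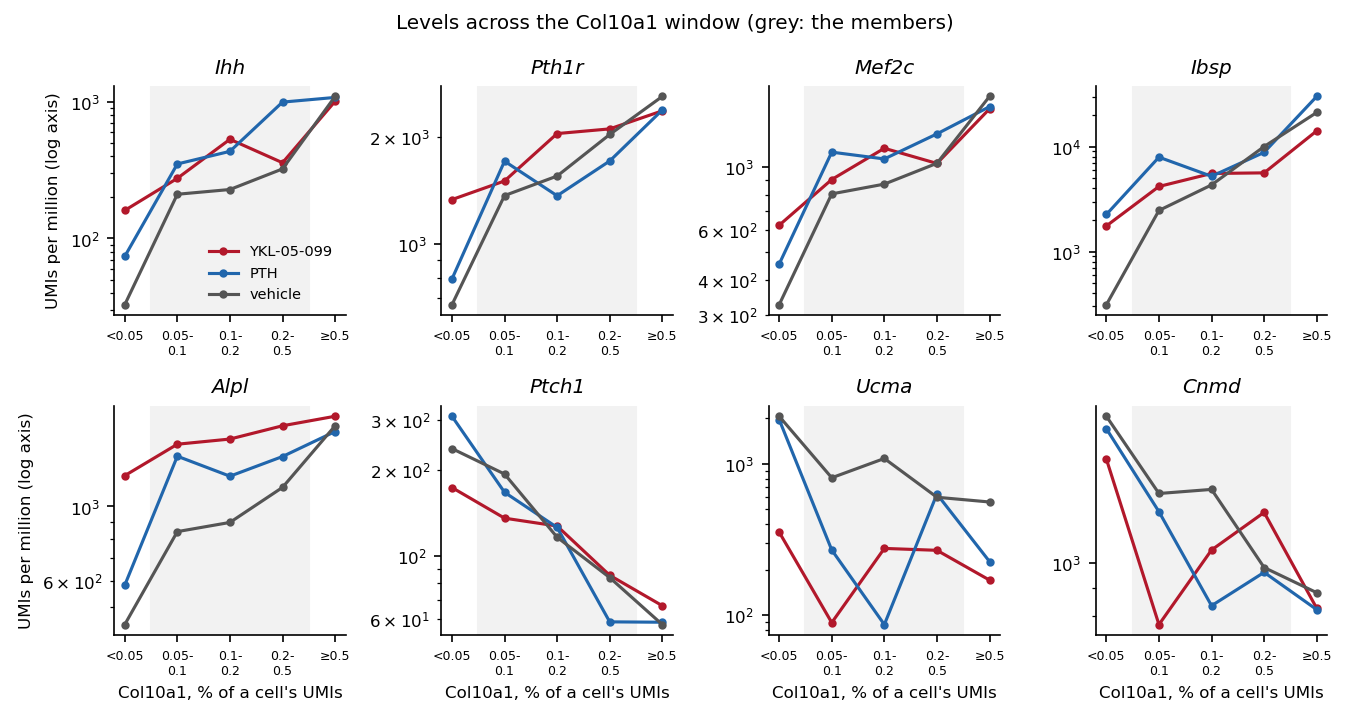
Levels of 8 genes (CPM, log axis) in cells below the Col10a1 window, in 3 bins within it (grey) and above it, for the YKL-05-099, PTH and vehicle libraries, 1 point per library and bin. Ihh, Mef2c and Ibsp stand highest above the window in each library, and Ptch1 falls across it, from 173 to 309 CPM below the window to 57.2 to 66.6 CPM above it.

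Within the window the 3 bins of 0.05 to 0.1%, 0.1 to 0.2% and 0.2 to 0.5% Col10a1 held 28, 28 and 45 YKL cells, 36, 30 and 34 PTH cells, and 74, 52 and 55 control cells. Ihh went through 275, 530.0 and 357 CPM in YKL, 350.1, 433 and 991 CPM in PTH, and 210.4, 228 and 322 CPM in control. It was thus highest in the top bin in PTH and control and in the middle bin in YKL. Ibsp, a mineral-binding protein of late cartilage and bone, had 4178, 5557 and 5631 CPM in the YKL bins, 7946, 5223 and 8839 CPM in the PTH bins, and 2468, 4321 and 10032 CPM in the control bins. Ptch1 was lowest in the top bin of every library.

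To set cells of unequal depth side by side, each cell was thinned to 5000 UMIs, which left 96 of 101 YKL, 91 of 100 PTH and 169 of 181 control members. Ihh was then seen in 55.2% of YKL members, 56.0% of PTH members and 49.7% of control members. Unthinned, the shares were 76.2%, 65.0% and 64.6%. Below the window the thinned share was 26.5% in YKL, 13.9% in PTH and 9.17% in control, and above it 85.1%, 94.03% and 90.8%. Endothelial cells had 4.88%, 1.05% and 5.04%, the YKL value from 2 of 41 cells. They are no clean measure of free RNA, since 1, 1 and 2 of them were members before thinning. The members therefore lay between their neighbours in the share of cells with Ihh as well as in its level, in all 3 libraries.

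**Figure D2:**
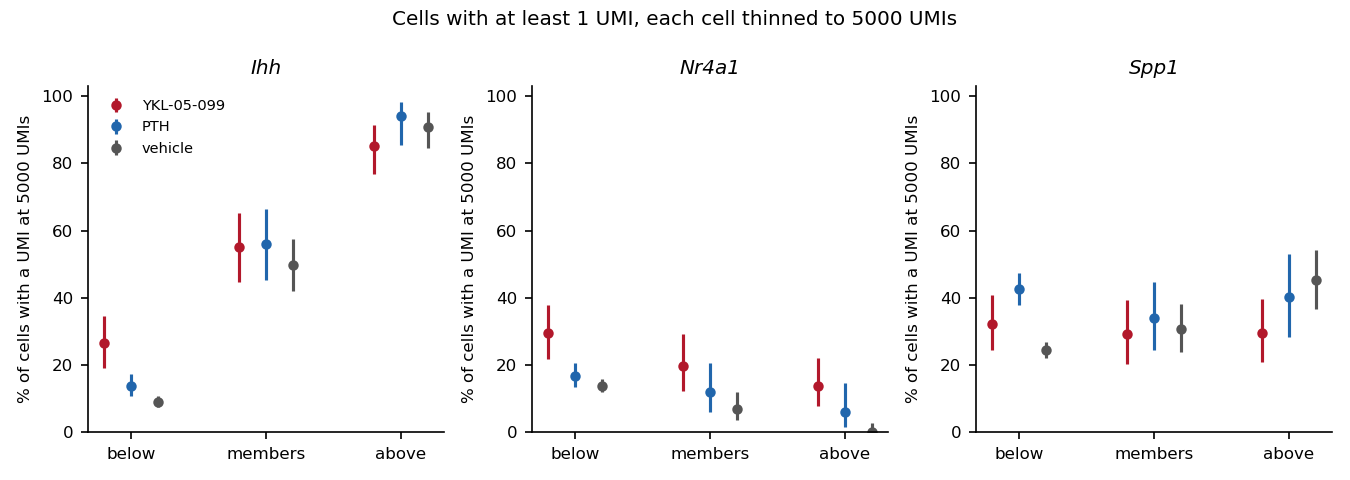
Percent of cells with at least 1 UMI of Ihh, Nr4a1 or Spp1 after each cell was thinned to 5000 UMIs, in cells below the window, members and cells above it, with exact 95% intervals for the YKL-05-099, PTH and vehicle libraries. The members' Ihh shares (55.2, 56.0 and 49.7%) lie between those of their neighbours, while Nr4a1 falls with each stage in all 3 libraries.

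Part of the hypertrophy list differed from the neighbouring stages. Of 18 tested genes, 6 were higher than in the cells below and 1 lower, beside 4.76% and 3.68% of all genes. Against the cells above 7 were lower, beside 6.58% of all genes. The medians were 0.52 and −0.62 (log2). Phex, an endopeptidase of mineralizing cells, climbed in every library: 3.06, 13.9 and 49.3 CPM over the stages in YKL, 6.17, 31.1 and 96.2 CPM in PTH, and 2.53, 23.4 and 97.3 CPM in control. Its log2 fold changes were 2.69 ± 0.25 against the cells below (adjusted p = 0.000328) and −1.92 ± 0.20 against those above (adjusted p = 0.000291). Ibsp had 1757, 5195 and 14156 CPM in YKL, 2259, 7554 and 30140.1 CPM in PTH, and 312, 5331 and 21194 CPM in control (2.25 ± 0.46 and −1.92 ± 0.44, adjusted p = 0.0134 and 0.0182, both lost without PTH at 0.0934 and 0.0973). Alpl, the phosphatase that frees phosphate for mineral, had 1236, 1643 and 1858 CPM in YKL, 582, 1364 and 1673 CPM in PTH, and 444, 949 and 1740.4 CPM in control. It was called against the cells below alone (0.87 ± 0.21, adjusted p = 0.0266), a call lost without the control (0.125) or PTH library (0.244). Without the PTH library the count against the cells below was 2 of 18, and without YKL it was 10 of 19. Against the cells above it was 3 lower without control and 8 lower without YKL.

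Of 11 tested FoxO and Iroquois genes, 3 were higher than in the cells below, beside 4.76% of all genes. Against the cells above 7 were lower, beside 6.58%. The medians were 0.44 and −0.79. Irx5, an Iroquois homeobox gene, had 10.0, 39.4 and 227 CPM over the stages in YKL, 6.39, 59.4 and 229 CPM in PTH, and 1.40, 28.1 and 211 CPM in control. Its log2 fold changes were 3.15 ± 0.39 (adjusted p = 0.00105) and −2.55 ± 0.31 (adjusted p = 0.000737), and both calls held without each library in turn. Depp1, a FoxO target, had 2.40, 37.9 and 157 CPM in YKL, 15.8, 62.3 and 206 CPM in PTH, and 4.07, 20.9 and 141 CPM in control (2.43 ± 0.31 and −2.24 ± 0.26). Leaving out a library left 3 higher against the cells below each time, and 3 to 5 lower against those above, 3 without PTH and 4 without control.

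Genes of immature cartilage split. Against the cells below, 4 of 23 were higher in members and 4 lower, beside 4.76% and 3.68% of all genes. The matrix genes Hapln1, which ties aggrecan to hyaluronan, and Snorc, a cartilage proteoglycan, were among the higher ones: Hapln1 had 6042, 9096 and 8614 CPM over the stages in YKL, 4684, 7986 and 8513 CPM in PTH, and 4779, 8089.6 and 8877 CPM in control (0.69 ± 0.10 against the cells below, adjusted p = 0.00173). Ucma, secreted by early chondrocytes, and Cnmd, an inhibitor of vessel growth, were among the lower ones. Ucma had 354, 219 and 170.4 CPM in YKL, 1968, 352 and 226 CPM in PTH, and 2068, 833 and 560.0 CPM in control. It fell by 1.57 ± 0.30 on the log2 scale against the cells below (adjusted p = 0.00959, lost without control at 0.0872). Just outside and just inside the lower bound, at 0.03 to 0.05% and 0.05 to 0.07% Col10a1, it had 395 and 89.3 CPM in YKL, 653 and 195 CPM in PTH, and 1373 and 959.9 CPM in control. Cnmd had 1555, 1059.9 and 826 CPM in YKL, 1768, 1036 and 822 CPM in PTH, and 1864, 1241 and 883 CPM in control, and fell by 0.65 ± 0.09 on the log2 scale (adjusted p = 0.00139).

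Many hypoxia, glycolysis and protein folding genes were higher in members than in the cells above the window. Of 25 hypoxia and glycolysis genes, 3 were higher than in the cells below, beside 4.76% of all genes. Against the cells above 14 were higher and 1 lower, beside 6.96% and 6.58%. The medians were 0.15 and 0.47. Gapdh, a glycolytic enzyme, had 5188, 4978 and 3103 CPM over the stages in YKL, 4148, 5579.6 and 3106 CPM in PTH, and 5314, 5825 and 2391 CPM in control (0.86 ± 0.14 against the cells above, adjusted p = 0.00345). Epas1, a hypoxia-inducible factor, was the exception and climbed: 6.55, 21.3 and 49.0 CPM in YKL, 11.7, 43.0 and 60.4 CPM in PTH, and 5.004, 10.6 and 47.6 CPM in control (1.60 ± 0.24 and −1.31 ± 0.22). Its second call was lost without control (adjusted p = 0.0504). Of 25 genes of protein folding and the unfolded protein response, 1 was higher and 1 lower than in the cells below. Those counts were near the 4.76% and 3.68% of all genes. Against the cells above 13 were higher, beside 6.96% of all genes. Hsp90b1, an ER chaperone, had 1195, 1162 and 714 CPM in YKL, 1469.8, 1550.0 and 789.9 CPM in PTH, and 1171, 1178 and 698 CPM in control (0.74 ± 0.08 against the cells above, adjusted p = 0.000365). Without the control library the counts against the cells above were 3 of 25 and 5 of 25, without PTH 12 and 8, and without YKL 6 and 8.

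Among enzymes and transporters that build sulfated sugar chains, 2 of 22 were higher and 1 lower than in the cells below, and 6 higher and 2 lower than in those above. The counts against the cells below were near the 4.76% and 3.68% of all genes, and those against the cells above stand beside 6.96% and 6.58%. Slc26a2, the sulfate transporter of cartilage, had 344, 275 and 136 CPM in YKL, 357, 196 and 91.3 CPM in PTH, and 418, 268 and 138 CPM in control. It differed from the cells above by 0.95 ± 0.11 on the log2 scale (adjusted p = 0.000732) and from those below by −0.62 ± 0.11 (adjusted p = 0.00618, lost without control at 0.0867 or PTH at 0.0671). Sulf1, which removes sulfate from heparan sulfate, climbed over the stages: 18.1, 41.0 and 106 CPM in YKL, 25.8, 73.6 and 115 CPM in PTH, and 20.8, 46.9 and 143 CPM in control (1.28 ± 0.15 and −1.31 ± 0.14). Without the control library 2 of 22 were higher than in the cells above. Of the 13 mitochondrially encoded genes, 11 were lower than in the cells below, beside 3.68% of all genes, with a median of −0.51. Against the cells above 3 were lower, mt-Co1, mt-Co2 and mt-Atp6, beside 6.58% of all genes, with a median of −0.18. All these cells had been limited to 10% mitochondrial UMIs. The median mitochondrial share per cell was 1.36, 0.932 and 0.773% below, within and above the window in YKL, 2.61, 1.53 and 1.88% in PTH, and 2.37, 1.68 and 2.12% in control. The count of 11 was 4 without control, 8 without YKL, and no gene kept the call without PTH, while the count of 3 stayed at 3 without YKL and was lost without control or PTH.

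**Figure D3:**
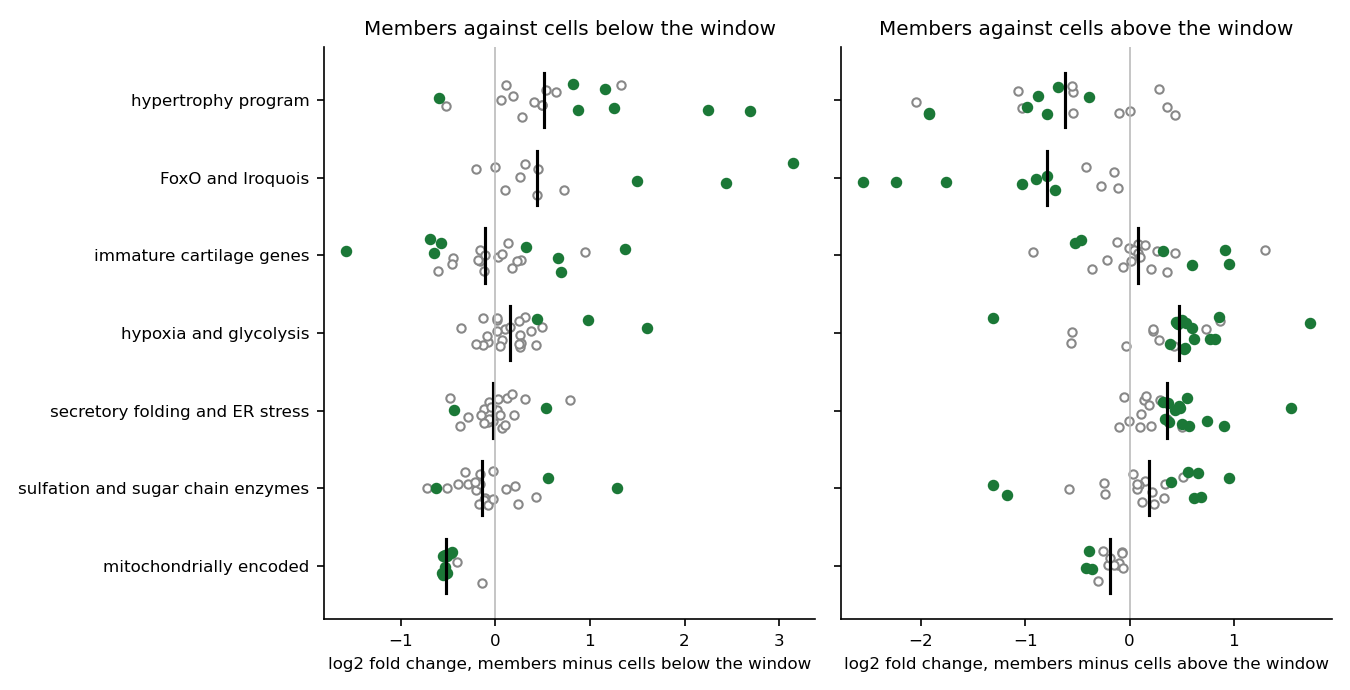
Log2 fold changes of members minus the cells below (left) or above (right) the window for the tested genes of 7 lists, with filled points for an adjusted p under 0.05, open points for the rest and a bar at the list's median. The hypertrophy median lies at 0.52 on the left and −0.62 on the right, and the hypoxia and glycolysis list has 3 genes called higher on the left and 14 on the right.

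Signalling genes outside the loop were called in both directions. Of 27 BMP and TGF-beta genes, 5 were higher and 2 lower than in the cells below, beside 4.76% and 3.68% of all genes. Against the cells above 3 were higher and 4 lower, beside 6.96% and 6.58%. Bmp2, a growth factor of cartilage maturation, had 16.2, 39.8 and 98.9 CPM over the stages in YKL, 14.1, 47.0 and 91.3 CPM in PTH, and 7.67, 26.2 and 53.3 CPM in control (1.60 ± 0.13 and −1.18 ± 0.12, adjusted p = 0.000126 and 0.000255). Nog, a BMP antagonist, was higher in members than in the cells below and was not called against those above. It had 74.7, 158 and 139 CPM in YKL, 27.1, 117 and 105 CPM in PTH, and 26.7, 78.7 and 106 CPM in control (1.55 ± 0.20, adjusted p = 0.0012, and −0.09 ± 0.20, adjusted p = 0.823). Frzb, a secreted WNT antagonist of cartilage, had 284, 533 and 842 CPM in YKL, 298, 744 and 877 CPM in PTH, and 201, 453 and 938 CPM in control (1.12 ± 0.14 and −0.73 ± 0.14, the second lost without control at 0.072). Among 10 FGF genes, the receptor gene Fgfr2 was lower than in the cells below (−1.41 ± 0.16, adjusted p = 0.00067) and Fgfr1 higher (1.18 ± 0.32, adjusted p = 0.0468). The Fgfr1 call was lost without control (0.228) or PTH (0.337). After thinning, Mki67, a marker of cycling cells, was seen in 1.04% of YKL, 2.20% of PTH and 0.592% of control members.

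Among single genes chosen for the smallest adjusted p, all 16 against the cells below and all 16 against those above kept their calls when any 1 library was left out and with DESeq2. Cited2, a transcriptional coregulator that also counts among cAMP and FoxO targets, had 59.2, 155 and 271 CPM over the stages in YKL, 53.3, 147 and 291 CPM in PTH, and 50.04, 156 and 255 CPM in control (1.499 ± 0.10, adjusted p = 5.26e-05, and −0.90 ± 0.10, adjusted p = 0.000372). Lox, which cross-links collagen, was higher in members than in the cells below and was not called against those above. It had 417, 938 and 827 CPM in YKL, 284, 739 and 743 CPM in PTH, and 331, 847 and 843 CPM in control (1.29 ± 0.10 and −0.01 ± 0.10, adjusted p = 0.000126 and 0.958). The others higher than in the cells below were Pcsk6, Map1lc3b, Ramp1, Stk39, Gcnt2 and Enc1, by 1.02 to 2.10 on the log2 scale. Mgp, an inhibitor of cartilage calcification, was lowest in the members of each library, with 5042, 868 and 1763 CPM in YKL, 6190.5, 1215 and 1722 CPM in PTH, and 4189, 1788 and 1856 CPM in control (−2.04 ± 0.21, adjusted p = 0.000514, and −0.57 ± 0.21, adjusted p = 0.0945). The others lower were Fbln7, Ecrg4, Htra3, Mt2, Itgbl1, Pcolce and Eva1b, by −1.01 to −1.81.

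Against the cells above the window, Vim, the intermediate filament gene of mesenchymal cells, had 717, 463 and 151 CPM over the stages in YKL, 949, 583 and 204 CPM in PTH, and 872, 555 and 148 CPM in control (1.61 ± 0.10, adjusted p = 2.95e-05). The metallothioneins, which bind zinc and copper, fell further: Mt1 had 2064, 1118 and 257 CPM in YKL, 2525, 1181 and 162 CPM in PTH, and 2188, 1591 and 287 CPM in control (2.39 ± 0.17, adjusted p = 5.92e-05), and Mt2 differed by 3.51. Prelp, Lsp1, Srm, Chrdl2 and Ptma were also higher than in the cells above, by 1.07 to 1.78. Lower in members were Gmpr, Dleu2, Tcf7l2, Rdh10, Rhod, Fam43a, Plaat3 and Slc25a36, by −1.23 to −2.22. Tcf7l2, a transcription factor of the WNT pathway, had 39.7, 74.9 and 232 CPM in YKL, 47.4, 105 and 260.5 CPM in PTH, and 32.2, 56.9 and 227 CPM in control (−1.72 ± 0.11, adjusted p = 2.95e-05).

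Few genes peaked in the window. Of 10343 tested, 206 climbed over both steps (1.99%) and 131 declined over both (1.27%), while 25 were higher in members than on either side (0.242%) and 10 lower (0.0967%). The peak set was not stable. Without control 4 genes were higher than both neighbours, 2 of them shared with the 25. Without PTH there were 7 with 4 shared, and without YKL 18 with 10 shared. H2-K1, a class I histocompatibility gene, had 152, 230.2 and 128 CPM over the stages in YKL, 76.6, 203 and 111 CPM in PTH, and 90.4, 167 and 87.3 CPM in control (0.94 ± 0.14 and 0.82 ± 0.15, adjusted p = 0.003 and 0.00662, lost without control at 0.0591 and 0.112). Eln, the elastin gene, had a peak of 74.6 CPM in YKL members that 1 cell supplied to 50.8%. Among the troughs, Arsi, which encodes a sulfatase, had 50.9, 24.96 and 71.2 CPM in YKL, 68.5, 37.4 and 77.9 CPM in PTH, and 56.0, 25.3 and 114 CPM in control (−1.03 ± 0.17 and −1.69 ± 0.17). Both Arsi calls held without each library in turn.

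Members of the treated libraries were then compared with control members, which asks what the kinase inhibitor and the hormone were associated with in chondrocytes at this point of the Col10a1 scale. Among genes that summed to 100 UMIs or more in the pair of libraries, 242 of 5452 were at least 1.5-fold higher in YKL than in control members (4.44%) and 146 lower (2.68%). In PTH members 228 of 4737 were higher (4.81%) and 180 lower (3.8%). YKL against PTH members gave 230 of 4755 higher (4.84%) and 226 lower (4.75%). Both treatments share the control library, so their ratios are given side by side and not compared as independent evidence. In PTH the split of higher and lower genes depended on the scaling: 55.9% of the 408 genes were higher with the total as the base, 64.4% after scaling by the median ratio and 44.0% after thinning each cell to 5000 UMIs. It was 45.7% without the 5 PTH and 1 control members whose depth was over 2 times their library's median. Thinning also moved the split between the treatments, to 63.9% higher in YKL than in PTH against 50.4% unthinned.

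Most measured genes of the cAMP, CREB and CRTC response were higher in members of both treated libraries than in control members. Of 25 listed genes 10 had enough UMIs, and 7 of the 10 were at least 1.5-fold higher in YKL members and 7 in PTH members, with 0 lower in either, beside the 4.44% and 4.81% of all genes. Their median log2 ratio was 0.75 in YKL and 0.77 in PTH, against −0.02 and −0.01 over all genes. Across the other filters, windows, scalings and cell weights tried at 1.5-fold, 4 to 8 were higher and 0 lower in each. The other 15 listed genes had too few UMIs to be compared.

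Nr4a1, a nuclear receptor that is an early target of cAMP, showed the widest gap. It had 76.7 CPM in YKL, 36.2 CPM in PTH and 15.6 CPM in control members, a ratio of 4.91 for YKL over control (95% interval 3.61 to 6.80), 2.32 for PTH over control (1.58 to 3.43) and 2.12 for YKL over PTH (1.60 to 2.83). The 3 levels stood apart beyond the counting error of UMIs, with YKL highest. After thinning it was seen in 19.8% of YKL (exact 95% interval 12.4 to 29.2%), 12.1% of PTH (6.19 to 20.6%) and 7.10% of control members (3.72 to 12.1%). In these shares of cells the PTH interval overlapped both others. Endothelial cells had 21.95%, 10.99% and 15.1%. They are known to express the gene themselves, so they give no measure of its free RNA, and whether free RNA added to the members' shares was not tested. The order YKL, PTH, control held in the neighbouring stages too, with 98.9, 45.1 and 36.4 CPM below the window and 41.5, 9.83 and 4.37 CPM above it. Above the window 10 of 143 control cells (6.99%) held Nr4a1 before thinning and 0 of 130 after it, with an exact upper bound of 2.80% for the thinned share. Nr4a1 was 1.11 ± 0.27 higher in members than in the cells above (adjusted p = 0.022), a value shown although the naming rule did not select it.

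Fos, Dusp1 and Junb moved with it. Fos, a subunit of the AP-1 factor, had 1722 CPM in YKL, 1733 CPM in PTH and 950.3 CPM in control members, 1.81 times control in YKL (1.73 to 1.89) and 1.82 times in PTH (1.73 to 1.92). Dusp1, a phosphatase of MAP kinases, had 325, 262 and 130.0 CPM, or 2.50 times control in YKL (2.23 to 2.80) and 2.02 times in PTH (1.76 to 2.31). Junb, a partner of Fos, had 955, 868 and 548 CPM, or 1.74 and 1.58 times control. Nr4a2 (2.47) and Ptgs2 (1.62), which makes prostaglandins, passed 1.5-fold in YKL alone, while Atf3 (2.16) and Pim1 (2.12) did so in PTH alone. Directly between the treatments, Nr4a1 and Nr4a2 were higher in YKL than in PTH members (2.12 and 1.74) and Atf3 lower (0.657). Cited2, which climbed with the stages, was level between the libraries at 0.996 and 0.944 times control.

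**Figure D4:**
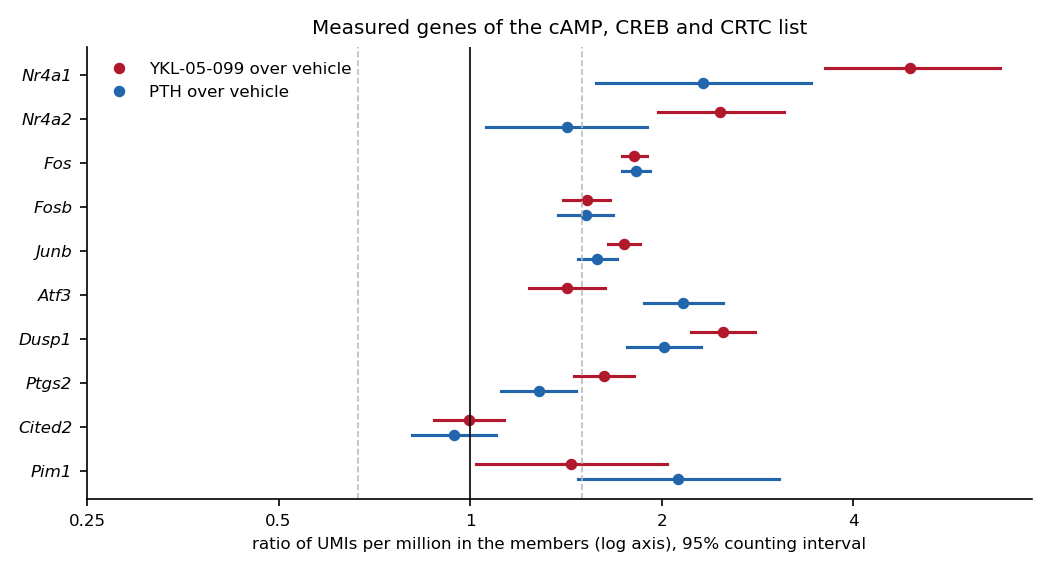
Ratio of CPM in members, YKL-05-099 or PTH over vehicle (log axis, bars: 95% counting intervals), for the 10 measured genes of the cAMP, CREB and CRTC list, with dashed lines at 1.5-fold either way. Nr4a1 lies farthest right in YKL at 4.91, Fos lies at 1.81 and 1.82, and Cited2 sits at 1.

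The promoters of 3 of these genes are shown because CREB, the factor that CRTC proteins assist, binds the palindrome TGACGTCA and its shorter form TGACG. The 250 bases before the RefSeq start are given 5′ to 3′ on the gene's strand, from GRCm38.p6, with each TGACG on either strand in capitals. Nr4a1 lies at chr15:101266596-101266845 on the plus strand and holds 4 TGACG sites, whose first bases are 233, 213, 69 and 40 bases before the start. Fos lies at chr12:85473640-85473889, plus strand, with 2 sites, 129 and 66 bases before it. Dusp1 lies at chr17:26508473-26508722, minus strand, with the full palindrome 143 bases before the start, in which TGACG overlaps on opposite strands, and 1 further site 191 bases before it.
Nr4a1: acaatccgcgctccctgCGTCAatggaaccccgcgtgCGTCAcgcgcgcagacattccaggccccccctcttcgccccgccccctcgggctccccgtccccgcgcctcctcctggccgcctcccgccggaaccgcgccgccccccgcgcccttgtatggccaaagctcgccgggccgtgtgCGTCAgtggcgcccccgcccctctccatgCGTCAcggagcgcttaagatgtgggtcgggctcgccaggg
Fos: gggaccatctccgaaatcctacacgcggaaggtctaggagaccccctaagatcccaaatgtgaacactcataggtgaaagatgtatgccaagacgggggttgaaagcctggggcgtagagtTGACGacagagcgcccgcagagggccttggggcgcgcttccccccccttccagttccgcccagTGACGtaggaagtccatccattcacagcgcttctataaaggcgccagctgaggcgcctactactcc
Dusp1: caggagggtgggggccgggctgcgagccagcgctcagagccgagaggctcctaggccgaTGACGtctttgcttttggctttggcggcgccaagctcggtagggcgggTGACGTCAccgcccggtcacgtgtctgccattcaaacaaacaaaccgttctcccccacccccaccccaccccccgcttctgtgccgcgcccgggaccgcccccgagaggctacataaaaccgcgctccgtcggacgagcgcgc
Of 32851 RefSeq promoters of this length, 17.8% hold at least 1 TGACG on either strand, 2.74% at least 2, a palindrome counted as 1 site, and 1.55% the palindrome. Of the 10 measured genes, 7 hold at least 1 TGACG and 1, Dusp1, the palindrome. Nr4a2 has 4 sites, Fosb, Junb and Atf3 have 1 each, and Ptgs2, Cited2 and Pim1 have none in this window. A match is a string of letters and shows no binding in these cells.

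Some genes that cell dissociation is known to induce also passed 1.5-fold, and the dissociation and heat shock list used here shares Fos and Dusp1 with the cAMP list. Of 16 measured dissociation and heat shock genes, 7 were at least 1.5-fold higher in YKL and 6 in PTH members, beside 4.44% and 4.81% of all genes, with 0 lower. The medians were 0.31 and 0.28 and the lowest log2 ratios −0.23 and −0.22. Jun, another AP-1 subunit, was 1.52 and 1.64 times control, and Egr1, an immediate early factor, 1.68 and 1.95 times. Hspa1a, a heat shock chaperone, was 2.08 times control in YKL and 1.04 in PTH. Below the window the cAMP list summed to 4872 CPM in YKL, 3398 CPM in PTH and 2431 CPM in control. Above it the sums were 3685, 3659 and 1697 CPM. The dissociation and heat shock list summed to 7064, 5906 and 4934 CPM below it and to 4962, 5132 and 2997 CPM above it. Both sums were thus lowest in control on either side of the window. The part of handling in the cAMP response was not tested, neither for the shared genes nor for the others of the cAMP list. Btg2, an antiproliferative gene, was 2.28 and 1.73 times control, and Hes1, a Notch target, had 47.5 CPM in YKL, 27.7 CPM in PTH and 11.9 CPM in control members, 3.998 times control in YKL (2.79 to 5.86).

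In the hedgehog and PTHrP loop, Ihh was the called gene in each treated library. It was 1.51 times control in YKL (1.38 to 1.65) and 2.41 times in PTH (2.20 to 2.64), and 0.627 in YKL against PTH (0.577 to 0.681). The YKL interval includes the bound of 1.5-fold. In the Col10a1 bins given above, both treated libraries stood over control in each bin. The YKL gap was widest in the middle bin and narrowest in the top bin, the largest bin of YKL members. Above the window Ihh was lower in both treated libraries than in control. In PTH members 1 cell supplied 18.2% of the Ihh UMIs, against 7.85% in YKL and 5.26% in control, and the thinned shares of cells with Ihh, given above, had overlapping intervals. Pth1r was 1.18 and 0.996 times control and Mef2c 1.15 and 1.32 times. Ptch1 had 110.0 CPM in YKL, 117 CPM in PTH and 136 CPM in control members, 0.808 (0.7004 to 0.931) and 0.860 (0.726 to 1.02) times control. Smo, the hedgehog signal transducer, was 1.17 and 1.26 times control with intervals that include 1. The remaining loop genes had fewer than 100 UMIs or stayed within 1.5-fold.

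The hypertrophy list held calls in both directions. Of 16 measured genes, 3 were higher and 2 lower in YKL than in control members (median log2 ratio 0.14). That stands beside 4.44% and 2.68% of all genes. In PTH 3 were higher and 1 lower (median 0.41), beside 4.81% and 3.8% of all genes. Alpl had 1643 CPM in YKL, 1364 CPM in PTH and 949 CPM in control members and was found in 100 of 101, 97 of 100 and 167 of 181 cells. Its ratio was 1.73 in YKL (1.66 to 1.81). Vegfa, the vessel growth factor, had 155, 172 and 102.8 CPM, 1.51 and 1.67 times control. Bmp6 had 39.1 CPM in YKL, 81.0 CPM in PTH and 36.9 CPM in control members, 2.20 times control in PTH (1.71 to 2.83). Phex was lower in YKL, at 13.9 CPM against 23.4 CPM in control members (0.592, 0.3997 to 0.868). Ibsp was level between YKL and control, with 5195, 7554 and 5331 CPM.

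Spp1, which encodes osteopontin, an inhibitor of mineral growth, was lower in both treated libraries but rested on few cells. It had 592 CPM in YKL, 1071 CPM in PTH and 1999.9 CPM in control members, ratios of 0.296 (0.281 to 0.311) and 0.536 (0.509 to 0.564). A single cell held 42.7% of its UMIs in YKL, another 30.5% in PTH and another 24.4% in control, and the median cell had 28.0 CPM in YKL and 0 in PTH and control. After thinning, 29.2% of YKL, 34.1% of PTH and 30.8% of control members had Spp1, shares whose exact intervals overlapped. Among 10 measured mineralization genes, 2 were higher in YKL (Alpl and the phosphate transporter Slc20a1, 2.18) and 4 lower, Spp1, Phex, Mgp (0.485) and Enpp1 (0.556), which makes the mineral inhibitor pyrophosphate. Over all genes 4.44% were higher and 2.68% lower in YKL. In PTH 1 of 9 mineralization genes was higher, Enpp1 (1.58, 1.16 to 2.15), and 1 lower, Spp1, beside 4.81% and 3.8% of all genes. The Enpp1 ratio fell to 0.983 when the late gene limit was set to 0.02%.

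**Figure D5:**
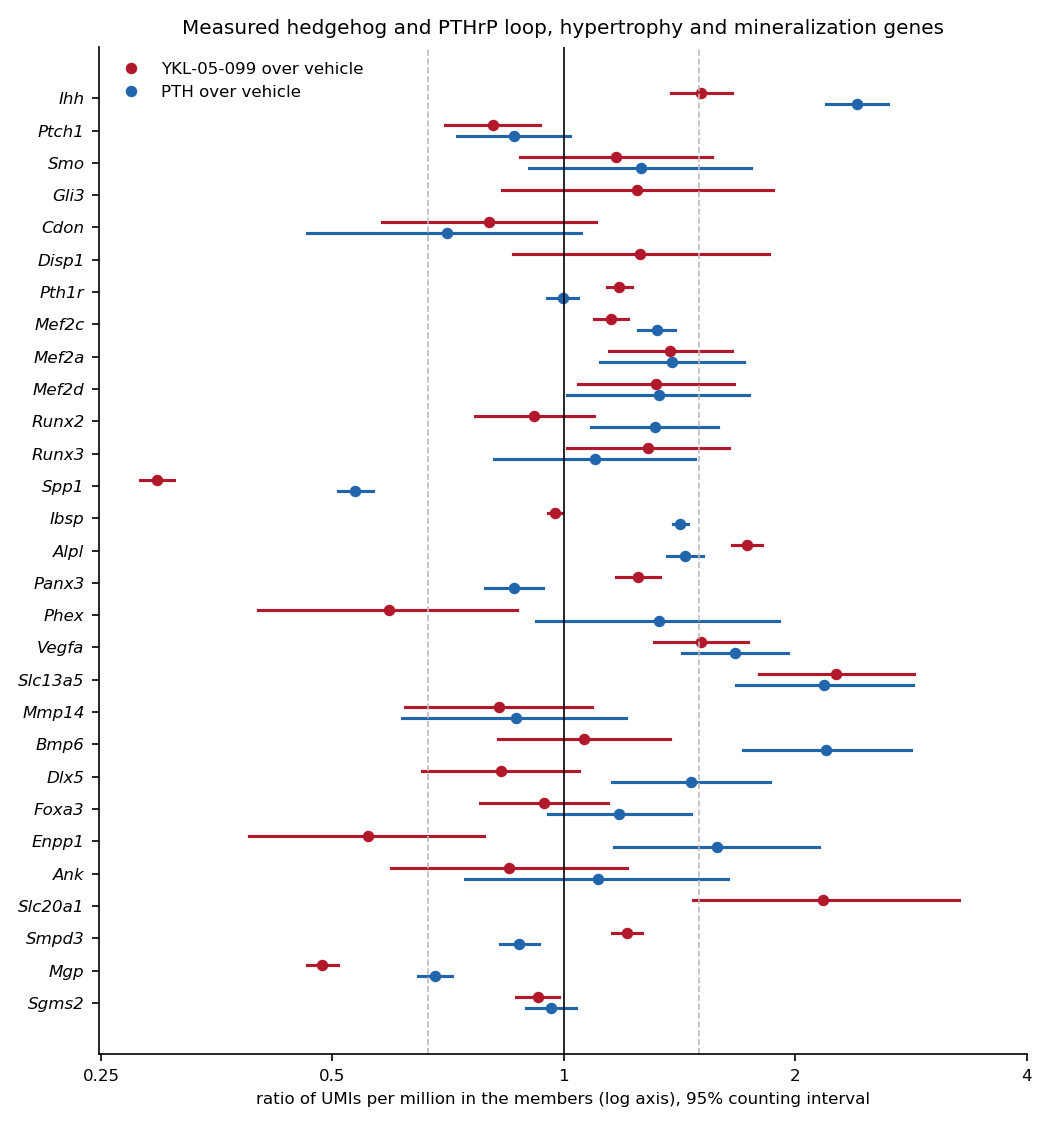
Ratio of CPM in members, YKL-05-099 or PTH over vehicle (log axis, bars: 95% counting intervals), for the measured hedgehog and PTHrP loop, hypertrophy and mineralization genes, with dashed lines at 1.5-fold either way. Alpl lies right of 1 in both treatments (1.73 in YKL), Spp1 lies left in both (0.296 and 0.536), and the loop genes other than Ihh stay between the dashed lines.

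Growth factor genes differed by family. Of 18 measured BMP and TGF-beta genes, 7 were at least 1.5-fold higher in YKL than in control members and 0 lower (median log2 ratio 0.39), beside 4.44% and 2.68% of all genes. Bambi, a pseudoreceptor that dampens BMP signalling, had 441 CPM in YKL against 286 CPM in control members (1.54, 1.42 to 1.68). In PTH members 4 of 17 were higher and 1 lower, beside 4.81% and 3.8% of all genes. Tgfbi, a TGF-beta target, had 48.1 CPM in PTH against 151 CPM in control members (0.318, 0.2497 to 0.4015). Of 11 IGF genes, 1 was higher and 3 lower in YKL, beside the same 4.44% and 2.68%, and 3 were higher and 1 lower in PTH. Irs2, an adaptor of the insulin and IGF receptors, had 31.1 against 13.7 CPM (2.26, 1.57 to 3.30). Igfbp5, an IGF-binding protein, had 9.25 CPM in YKL, 87.2 CPM in PTH and 49.4 CPM in control members, but 1 cell supplied 57.1% of it in PTH and 78.5% in control, and its ratio in PTH of 1.77 turned to 0.838 without the members of the greatest depth.

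Most matrix and secretory genes stayed within 1.5-fold. Of 21 measured genes of immature cartilage, 0 were higher and 1 lower in YKL, and 1 higher and 2 lower in PTH. The shares of all genes were 4.44% higher and 2.68% lower in YKL, and 4.81% and 3.8% in PTH. Ucma, the gene lower in both, had 219 CPM in YKL, 352 CPM in PTH and 833 CPM in control members (0.263, 0.242 to 0.286, and 0.422, 0.386 to 0.461). It was found in 56 of 101 YKL, 37 of 100 PTH and 117 of 181 control cells, and 1 PTH cell held 46.5% of its UMIs. Of 24 measured genes of protein folding, 0 passed 1.5-fold in either direction in YKL or PTH against control or between the treatments, a fold and not a test. Of the hypoxia and glycolysis genes 3 of 24 were higher in YKL and 3 of 23 in PTH, with 0 lower. Over all genes 4.44% and 4.81% were higher. Adm, a hypoxia-induced peptide hormone, had 250.2 CPM in PTH against 137 CPM in control members (1.82, 1.59 to 2.08), and Hk2, a hexokinase, 136 CPM in YKL against 80.0 CPM (1.70, 1.45 to 1.99). Among the genes of the kinase pathway itself, 1 of 9 passed 1.5-fold in YKL, Creb1 (1.64, 1.09 to 2.47), and 1 of 8 in PTH, Mark3 (1.60, 1.30 to 1.96). Both genes were higher, beside 4.44% and 4.81% of all genes, and 1 gene is no result about the list.

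Among the genes named as higher in YKL members was Dqx1, at 64.7 against 3.44 CPM in control members (18.8, 10.3 to 38.3), yet only 9 of 101 cells held it and 1 cell supplied 33.3%. Timp3, an inhibitor of metalloproteases, had 427 CPM in 92 of 101 YKL cells against 168 CPM in 121 of 181 control cells (2.54, 2.30 to 2.81). Rnaset2a had 127 against 39.7 CPM (3.21), but it has a near-identical copy, Rnaset2b, and the split of reads between them is uncertain. Among the genes lower in YKL than in control members, beside Ucma and Spp1, were Cytl1, a secreted cartilage factor, at 21.6 against 135 CPM (0.159, 0.122 to 0.206), and Aspn, a small proteoglycan, at 43.1 against 121 CPM (0.356, 0.291 to 0.433). C1qtnf3 (0.431) and Fstl1 (0.373) followed.

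Higher in PTH members was Loxl4, a lysyl oxidase, with 187 CPM in 65 of 100 cells against 60.3 CPM in 70 of 181 control cells (3.10, 2.59 to 3.72). Espn, an actin-bundling protein, had 142 CPM in 34 of 100 PTH cells against 37.5 CPM in 33 of 181 control cells (3.78, 3.02 to 4.73). Ptp4a3, a phosphatase, had 72.5 CPM in 41 PTH cells against 14.1 CPM in 35 control cells (5.15, 3.64 to 7.41), and Sparcl1, a matricellular protein, 59.4 CPM in 21 PTH cells against 9.37 CPM in 19 control cells (6.34, 4.19 to 9.86). Lower in PTH members were Fabp5, a fatty acid carrier, at 28.9 against 108 CPM (0.268, 0.196 to 0.360), Klk8, a secreted protease, at 27.2 against 93.1 CPM (0.292, 0.211 to 0.397), the imprinted RNA H19 at 323 against 724 CPM (0.446, 0.406 to 0.489), and Sbsn at 78.1 against 176 CPM (0.444). Directly between the treatments, Ppa1, a pyrophosphatase, had 1208 CPM in YKL against 493 CPM in PTH members (2.45, 2.28 to 2.64). Lgals1, a galectin, had 48.7 against 221 CPM (0.221, 0.182 to 0.266).

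Genes of other cells differed between the members of the 3 libraries. Haemoglobin, 5 of 5 genes present, summed to 3860 CPM in YKL, 3550.1 CPM in PTH and 14236 CPM in control members, but 1 cell held 91.4% of the Hbb-bs UMIs in YKL and 90.3% in PTH. Neutrophil genes summed to 33.0 CPM in YKL with 6 of 9 present, 9.06 CPM in PTH with 6 of 9, and 618 CPM in control with 8 of 9, where S100a9 had 1.54, 1.70 and 308 CPM. Elane was at 0 in YKL and control, and Retnlg at 0 in PTH. Of 12 macrophage genes 8, 10 and 11 were present, at 30.5, 36.2 and 114 CPM, and C1qb was at 0 in each library. Smooth muscle and pericyte genes were higher in PTH members, at 940.3 CPM against 272 in YKL and 292 in control. There Acta2 had 282 CPM against 1.85 CPM in YKL and 5.31 CPM in control, and Myl9 58.3 CPM in PTH against 2.81 CPM in control. A single PTH cell supplied 97.8% of the Acta2 and 91.3% of the Myl9 UMIs, and 75.2% of those of Tpm2 came from 1 cell. Of 3 measured tendon genes 2 were higher in PTH than in control members, beside 4.81% of all genes. Tnmd had 93.97 CPM in PTH against 5.94 CPM in control (15.8, 9.82 to 26.96) and Abi3bp 65.7 against 7.497 CPM (8.76, 5.61 to 14.2), with 78.9% and 73.3% of the PTH UMIs in 1 cell. Of 6 measured fibroblast and progenitor genes 3 were lower in YKL than in control members, beside 2.68% of all genes. Among them were Col3a1, at 679.9 against 1038 CPM (0.655, 0.621 to 0.692), and Postn, at 182 against 324 CPM (0.563, 0.508 to 0.624), both spread over most cells. Of 5 measured in PTH 1 was lower, Postn (0.657), beside 3.8% of all genes. The part of genes of other cells in the differences between libraries was tested only by leaving cells out. Without members that held 2 or more UMIs of such genes, haemoglobin Hbb-bs aside, the cAMP count was 7 of 10 higher in YKL and 8 of 10 in PTH, with 0 lower in both.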

How the data were processed

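Single-cell gene expression was measured in 3 droplet libraries of day 7 fracture callus, 1 per treatment. The deposited values are raw UMI counts per gene and barcode, filtered by the authors to 14807 barcodes of at least 500 UMIs. The file headers name Cell Ranger 4.0.0, and the reads were placed on mm10 per the submitters' processing notes, which also name Seurat without its role. Doublets were not removed here and no doublet caller was run.

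Members and the cells below and above their Col10a1 window were found by the thresholds given in the report, and the 8 rule genes were left out of all tests. The members, gene lists and tests were chosen with earlier results of these data known. UMIs were summed over cells. Between libraries, ratios of CPM carry exact conditional binomial 95% intervals, with no test, where the pair of libraries held 100 UMIs or more of a gene. Shares carry exact Clopper-Pearson intervals. For a count of 0 the limit is 3 counts.

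Between stages, 9 sums were fitted with edgeR 4.0.16 (R 4.3.3) by the quasi-likelihood test with TMM scaling, filterByExpr and the library as block. The pairing comes from each library giving all 3 stages, and deviations from the stage means correlated within libraries at 0.185 to 0.472 in all 9 pairs of stages. Nothing in the labels used here says that libraries were repeated. With the block, p-values measure how the differences between stages vary over these 3 libraries, with 4 residual degrees of freedom. Each library had its own treatment, so this variation also holds any difference of treatments in the stage effect. Scripts were tested on simulated data.

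Genes were named by rule. Per pair of libraries these were the 6 higher and the 6 lower genes whose interval bound lay farthest from 1, at 50 CPM or more. Per pair of stages they were the 8 higher and the 8 lower with the smallest adjusted p at 1.5-fold or more. Up to 10 genes at a peak and at a trough, the label's markers, the loop genes, and up to 4 genes of each list (the most abundant called) were added. Mitochondrial, ribosomal and predicted genes and genes of other cells were left out of the first 3 sets. Listed genes outside these (Nr4a1 in the stage test, and those of the cAMP, dissociation, WNT, hypoxia and FoxO lists beyond the most abundant) were named after their values were seen. The lists held 523 symbols, of which 517 matched the 32285 gene rows. Alternatives were other windows, cell filters, thinning, scalings, count minimums, folds, DESeq2 1.42.0, no block and leaving out each library. A few genes that met the naming rule are not reported here.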

Additional observations from a re-analysis of the deposited data

How the results depend on the processing

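With 1 library per treatment, depth, free RNA and treatment cannot be told apart between libraries, and 101, 100 and 181 members set the precision. Genes under 100 UMIs were not compared. The planned exclusion of members with 2 or more UMIs of other cells was not run, since Hbb-bs left 3 YKL, 18 PTH and 2 control members. A version without Hbb-bs was chosen after seeing the data.

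Between stages, the 873 genes called against the cells below became 482 after thinning, 1504 with no filter on low counts and 242 with no replicate block, and 207 to 723 when 1 library was left out. The 1401 against the cells above became 687 with a window from 0.1%, 529 after thinning, 930 with DESeq2 and 635 with no replicate block, and 202 to 834 when 1 library was left out. Without the block 14 and 15 of the 16 genes named against each neighbour kept their calls.

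Between libraries, the 388 genes past 1.5-fold in YKL against control became 155 after thinning, 729 at a minimum of 50 UMIs, 194 at 200 and 88 at 2-fold. The 408 in PTH against control became 674 with each cell counted equally, 184, 848, 192 and 101 under the same settings. The 456 between YKL and PTH became 761, 144, 894, 220 and 97.

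The member share of 16.7% in YKL became 13.7% at 200 genes, 12.0% from 0.1% Col10a1 and 12.7% up to 0.3%. The 5.23% in PTH became 8.80% at a mitochondrial maximum of 5%, 3.35% from 0.1% and 3.92% up to 0.3%. The 6.15% in control became 5.12% at 200 genes, 7.17% at 1000 genes, 7.71% at 5% mitochondrial, 3.63% from 0.1% and 5.13% up to 0.3%.

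Ratios that changed side, cause not tested, were Enpp1 (0.983 with a late gene limit of 0.02%), Igfbp5 (0.246 up to 0.3% Col10a1, 0.838 without deep members) and Tpm2 (0.957 without deep members) in PTH against control. Between YKL and PTH they were Gadd45a (0.987 with each cell equal), Hbb-bt (0.946 with each cell equal, 0.933 thinned, 0.0577 without members with UMIs of other cells), Spp1 (1.29 with a limit of 0.02%) and Ucma (1.27 with each cell equal, 1.20 thinned, 1.28 without deep members). Acta2 against the cells above turned to −3.41 with a window up to 0.3%. Of all settings of the named genes, 2774 ratios stayed, 308 moved and 12 changed side. In the stage tests of the named genes, 5616 values kept their status, called or not. A call was lost in 714 and gained in 79, and 1 changed side.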
